A study of Mus musculus with 4 samples.

Results

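The 3 genes of the peroxisome proliferator-activated receptors (PPARs), Ppara, Ppard and Pparg, were examined in an ATAC-seq study of newborn mouse hearts. ATAC-seq uses the Tn5 transposase to insert sequencing adapters into open chromatin, so that a pile of fragments (a peak) marks an accessible site. Every called peak was taken that overlapped the body of a PPAR gene on the mouse genome GRCm38 or the 20 kb on either side of it. Overlapping peaks were merged, which gave 23 regions at the 3 genes out of 53140 in the whole data set, 11 at Ppara, 7 at Ppard and 5 at Pparg. The hearts were C57BL/6 hearts at postnatal day 0, with 1 heart in each library. The group labelled edKO (n = 2) had cardiomyocytes without RXR alpha and without RXR beta, and the WT group (n = 2) was wild type. What drove the deletion, and whether WT hearts carried any part of the transgenic system, are not stated in the labels. Nuclei came from the whole heart, so non-cardiomyocytes of edKO hearts, which the deletion did not target, are part of each measurement.

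PPARs are nuclear receptors that bind fatty acids and their derivatives and act on DNA as obligate partners of a retinoid X receptor (RXR), the pair sitting on repeats of a short hexamer. PPAR alpha, encoded by Ppara, drives mitochondrial fatty acid oxidation and is abundant in heart and liver. PPAR delta, encoded by Ppard, is found in most tissues and also raises fatty acid use in heart and skeletal muscle, while PPAR gamma, encoded by Pparg, is best known as the master regulator of fat cell formation. The edKO hearts lack RXR alpha and beta, partners of all 3 receptors, in cardiomyocytes, and the comparison asks whether accessibility at the genes that encode the PPARs differed.

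The promoters were called open in all 4 hearts at Ppara, at Ppard and at the first of 3 annotated starts of Pparg, and in no heart at the third Pparg start. The sequences of these 4 starts are shown because the peaks described next lie on them or miss them. They are from RefSeq on GRCm38.p6, plus strand, 5′ to 3′, each with 250 bases before and 50 after the annotated start. Ppara lies at chr15:85735526-85735825, Ppard at chr17:28232504-28232803, the first Pparg start at chr6:115360894-115361193 and the third at chr6:115421816-115422115. Capitals mark matches, on either strand, to the receptor half-site AGGTCA, the GC box GGGCGG, the CCAAT box CCAAT, the E-box CACGTG or the TATA box TATAAA.
Ppara: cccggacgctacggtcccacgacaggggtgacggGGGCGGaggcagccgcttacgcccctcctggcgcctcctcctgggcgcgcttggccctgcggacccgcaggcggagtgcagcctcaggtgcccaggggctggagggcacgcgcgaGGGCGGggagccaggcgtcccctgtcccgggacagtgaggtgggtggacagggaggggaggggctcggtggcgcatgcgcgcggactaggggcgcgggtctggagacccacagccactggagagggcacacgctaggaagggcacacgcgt
Ppard: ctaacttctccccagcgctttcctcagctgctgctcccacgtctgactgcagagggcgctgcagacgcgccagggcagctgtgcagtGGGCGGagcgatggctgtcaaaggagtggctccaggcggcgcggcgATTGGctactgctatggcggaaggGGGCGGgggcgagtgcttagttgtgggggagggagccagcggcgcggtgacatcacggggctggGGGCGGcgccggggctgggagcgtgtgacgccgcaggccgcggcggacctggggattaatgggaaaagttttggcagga
Pparg, the first start: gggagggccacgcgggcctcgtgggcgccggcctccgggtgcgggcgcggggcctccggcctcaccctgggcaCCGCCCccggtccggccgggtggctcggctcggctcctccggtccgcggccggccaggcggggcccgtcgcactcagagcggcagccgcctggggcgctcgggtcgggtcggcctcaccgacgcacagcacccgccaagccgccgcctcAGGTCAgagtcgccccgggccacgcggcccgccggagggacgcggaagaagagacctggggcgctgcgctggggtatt
Pparg, the third start: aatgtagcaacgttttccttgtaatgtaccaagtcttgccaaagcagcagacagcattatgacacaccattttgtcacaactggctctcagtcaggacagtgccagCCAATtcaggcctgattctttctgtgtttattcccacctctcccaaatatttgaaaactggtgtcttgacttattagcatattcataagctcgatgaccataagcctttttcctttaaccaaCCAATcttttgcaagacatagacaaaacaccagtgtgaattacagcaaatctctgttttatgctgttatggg

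Of the 4 starts shown, those called in all hearts were rich in G and C and the uncalled one was not. The GC content was 74.7% for Ppara, 68.3% for Ppard and 80.3% for the first Pparg start, against 40.3% for the third Pparg start and a median of 52.7% over 32817 RefSeq promoters of this length. They held 30, 27 and 44 CpG dinucleotides, against 2 at the third Pparg start and a median of 7. The GC box matched 2 times in the Ppara sequence, 3 times in that of Ppard and 1 time in that of the first Pparg start, and it matches in 35.6% of all promoters. The half-site AGGTCA, the unit from which PPAR and RXR sites are built, matched 1 time, in the first Pparg start, and matches in 16.3% of all promoters. The CCAAT box matched 1 time in Ppard and 2 times in the third Pparg start, against 37.4% of all promoters with a match. None of the 4 sequences matched the E-box (7.15% of all promoters), the TATA box (13.6%) or a direct repeat of the half-site with 1 base between the copies, the classical site of a PPAR with RXR, which matches in 0.0396% of all promoters. The second Pparg start, not shown, was partly covered by peaks in edKO 2 and WT 1 alone. It had a GC content of 62.7% and 13 CpG dinucleotides. Its sequence matched the half-site 1 time, the GC box 2 times, the CCAAT box 1 time and the TATA box 1 time. All of these are letter matches in a fixed window, not measured binding sites.

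Peaks covered all 300 bases of the Ppara and Ppard sequences in every heart. At the first Pparg start they covered 278 and 300 bases in edKO 1 and edKO 2, and 300 in each WT heart. The third Pparg start carried no called peak in any of the 4 hearts, with the nearest summit 10554 bp away in edKO 1 and farther in the others. The second start of Pparg (chromosome 6, 115362349) was partly covered in 1 heart of each genotype, over 200 bases in edKO 2 and 97 in WT 1. The summit, the highest point of a peak, lay 306 and 315 bp upstream of the Ppara start in edKO hearts and 314 and 306 bp upstream in WT hearts. At Ppard it lay 82 and 77 bp upstream in edKO hearts and 84 and 78 bp upstream in WT hearts. Summit positions at these 2 starts thus overlapped between the genotypes. At the first Pparg start the summits were scattered in both, 115 bp upstream and 12 bp downstream in edKO hearts and 230 bp upstream and 18 bp downstream in WT hearts.

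The authors called peaks library by library, and the libraries differed in ways that bear on every count of calls. The edKO lists held 27473 and 27142 peaks and the WT lists 35279 and 38809, a ratio of 0.737. The lowest local background at any called peak stands here for relative depth. It was 1.51 and 1.92 in edKO hearts and 1.81 and 1.80 in WT hearts, so it did not order the libraries by genotype. Among the 10000 strongest peaks of a list, the authors' fold enrichment had a median of 10.2 and 7.61 in edKO hearts and 10.8 and 11.5 in WT hearts, lower in both edKO libraries. Of 8 cardiomyocyte markers, 7 had a peak within 1 kb of a gene end in every heart, and Nkx2-5 had none in any. Endothelial markers had one at 3 and 3 of 5 genes in edKO hearts and 2 and 3 in WT hearts, and fibroblast markers at 2 and 2 of 5 in edKO hearts and 3 and 4 in WT hearts. The summed −log10 p of those peaks was 294 and 232 in edKO hearts and 383 and 503 in WT hearts for cardiomyocyte markers, 53.3 and 37.4 against 48.2 and 67.7 for endothelial and 16.1 and 12.4 against 28.5 and 40.8 for fibroblast markers. Their part in the results was not tested. In a bulk library, fewer cells with an open site and less opening in each cell cannot be told apart.

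Fewer regions at the PPAR genes were called in each edKO heart than in either WT heart, and the edKO lists were shorter as a whole. There were 14 and 15 of the 23 regions called in edKO hearts and 18 and 17 in WT hearts. Both edKO values lay below both WT values, at means of 14.5 ± 0.707 and 17.5 ± 0.707 (SD, n = 2 each), a ratio of 0.829, beside 0.737 for whole lists. The exact permutation test, two-sided, gave p = 0.333, the smallest that 2 hearts against 2 allow (adjusted p = 0.481 by Benjamini-Hochberg over 13 comparisons of this kind). The called peaks covered 6970 and 7757 bases in edKO hearts and 8641 and 8950 in WT hearts (means 7363.5 ± 556 and 8795.5 ± 218, exact permutation p = 0.333). Set against list size the order no longer held, with 0.510 and 0.553 PPAR regions per 1000 peaks in edKO hearts and 0.510 and 0.438 in WT hearts. Per 100 kb of called peaks, the PPAR windows held 64.9 and 70.5 bases in edKO hearts and 58.7 and 56.4 in WT hearts, higher in both edKO hearts (exact permutation p = 0.333). When every list was cut to its 27142 strongest peaks, the mean number of PPAR regions called differed by 0 between the genotypes. By gene the differences (edKO minus WT) were −1 at Ppara, −0.5 at Ppard and 1.5 at Pparg, which cancelled. The bases covered stayed lower in edKO hearts on average, with a difference of −484.5 (exact permutation p = 0.667). It was −243.5 at Ppara, −207.5 at Ppard and −33.5 at Pparg.

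By gene, the calls in edKO hearts were 6 and 7 at Ppara, 5 and 5 at Ppard and 3 and 3 at Pparg. In WT hearts they were 8 and 8 at Ppara, 6 and 6 at Ppard and 4 and 3 at Pparg. The genotypes did not overlap at Ppara and Ppard (exact permutation p = 0.333 for each) and overlapped at Pparg (p = 1). The share of all genes without overlap was not counted, so this shows nothing particular to the PPAR genes. Ratios of calls in edKO over WT hearts were 0.8125, 0.833 and 0.857, inside the middle range of 8517 protein-coding genes with at least 4 regions, whose median was 0.769 and whose quartiles were 0.6 and 0.917. Regions were densest at Ppara, with 9.83 per 100 kb of window, against 6.44 at Ppard and 2.95 at Pparg.

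Of the 15 PPAR regions called in both WT hearts, 2 were called in neither edKO heart (WT-only), a share of 13.3% against 19.4% of all such regions. A further 2 of the 15 were called in 1 edKO heart alone. In the other direction, 0 of the 12 regions called in both edKO hearts were missing from both WT hearts, against 1.35% of all such regions. With a count of 0 of 12 the share may be as high as 25%. All 4 hearts shared 11 of the 23 regions, against 31.2% of all merged regions, and 7 were called in 1 heart alone, against 39.3%. The WT-only count was 4 without WT 1 and 4 without WT 2. The edKO-only count was 2 without edKO 1, 2 without edKO 2 and 1 without WT 1. Leaving out a heart loosens both definitions, since fewer calls or absences are required, so higher counts are built in.

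Both WT-only regions lay inside a gene. All 7 regions within 1 kb of a gene end were called in both WT hearts and 0 were WT-only, against 5.92% of all gene-end regions. Of 6 gene-body regions with a call in each WT heart, 2 were WT-only, against 27.0% in general. Outside genes it was 0 of 2, against 29.2%. With counts this small, no difference between the PPAR genes and the rest was shown.

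**Figure D1:**
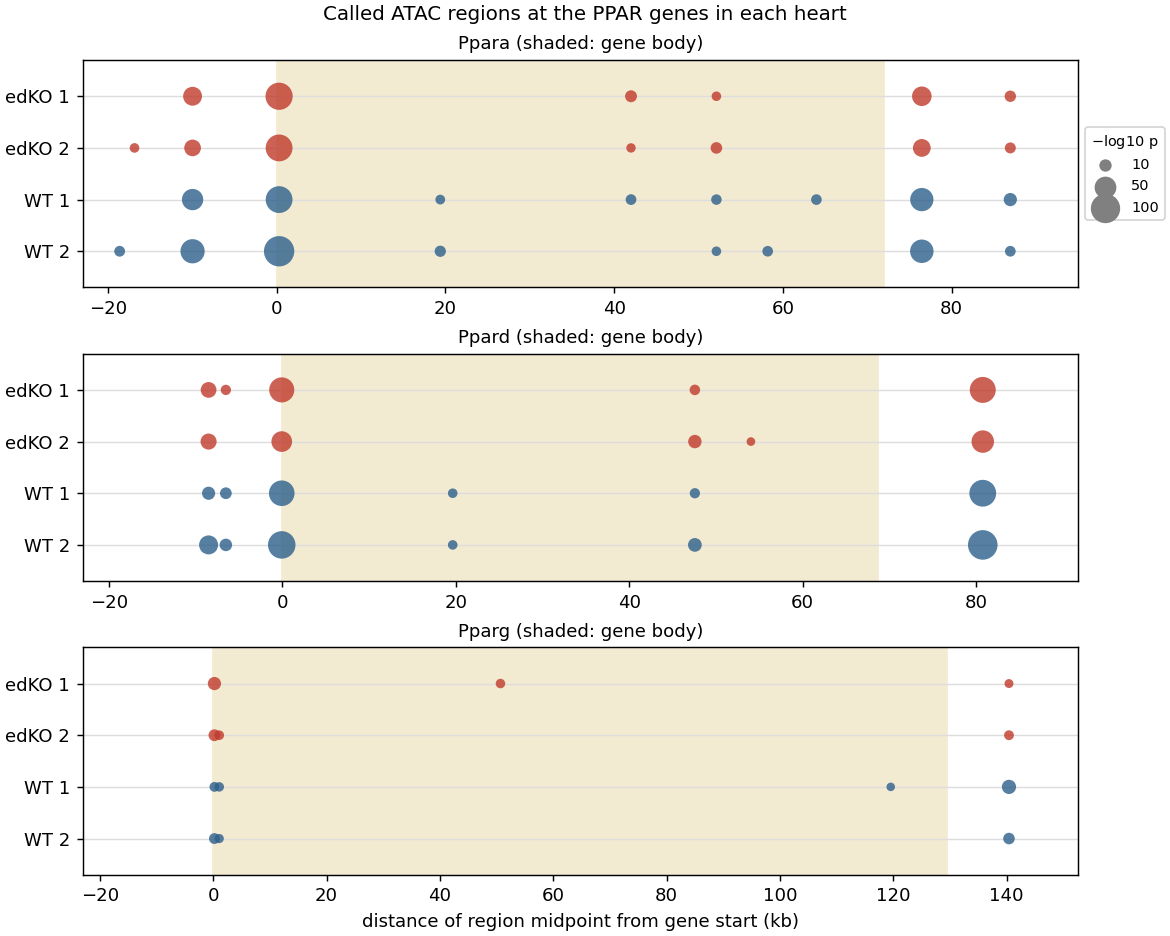
Called regions at Ppara, Ppard and Pparg in each heart, edKO hearts above WT hearts. The x axis is the distance of the region from the gene start in kb, the shaded band is the gene body and larger points have a higher −log10 p. The promoters form a column of 4 calls near 0, while the 2 WT-only regions sit about 19.4 kb inside Ppara and 19.7 kb inside Ppard.

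Both WT-only regions were weak sites in the bodies of the genes. The Ppara one (chromosome 15, 85754133 to 85754449) lay 19.4 kb inside the gene. It had a summit pileup, the number of fragments stacked at the summit, of 16 in WT 1 and 21 in WT 2, and the authors' −log10 p was 7.87 and 12.3. The Ppard one (chromosome 17, 28252171 to 28252649) lay 19.7 kb inside the gene, with a pileup of 19 and 20 and a −log10 p of 7.33 and 7.35. Ranked by −log10 p within each WT list, they stood at the percentiles 39.1 and 24.3 on average. The median was 31.9 over all WT-only regions and 60.1 over all regions called in both WT hearts. The lowest pileup of any called peak was 6 and 7 in edKO hearts and 7 and 7 in WT hearts, so an uncalled site may still have held fragments. When the lists were cut to equal length, 1 WT-only region was left, that of Ppara.

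At Ppara the promoter was the strongest of all 23 regions. The region (chromosome 15, 85734470 to 85735894, gene end) had a summit pileup of 137 and 136 in edKO hearts and 144 and 182 in WT hearts. The authors' −log10 p there was 97.6 and 94.9 in edKO hearts and 94.7 and 123 in WT hearts, so the genotypes overlapped on that measure. Upstream, 9.65 kb before the gene, a region over the long non-coding RNA gene Gm46529 (85724591 to 85725257) had a pileup of 58 and 54 in edKO hearts and 84 and 99 in WT hearts. Before any scaling for the library, both edKO hearts were lower at these 2 sites.

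The other Ppara regions were weaker or belonged to neighbours. Inside the gene, the region 52.1 kb from its start (85786736 to 85787323) was called in every heart, at a pileup of 12 and 22 in edKO hearts and 19 and 14 in WT hearts. The region 42.0 kb inside (85776686 to 85777123) had 21 and 13 in edKO hearts and 18 in WT 1, with no call in WT 2. These values overlapped between the genotypes. Regions called in 1 heart alone were those at 85792995 to 85793222 (pileup 18, WT 2) and 85798767 to 85799004 (21, WT 1) in the gene body. Upstream there were 85717898 to 85718184 (22, edKO 2) and 85716174 to 85716383 (29, WT 2). They were not shared by the hearts of either genotype. Downstream, the region at an end of the neighbouring gene Cdpf1 (85810814 to 85811951) had a pileup of 70 and 65 in edKO hearts and 107 in each WT heart. At an end of Pkdrej, a gene of the polycystin family expressed in the testis, the region 85821478 to 85822271 had 20 and 19 in edKO hearts and 30 and 18 in WT hearts. Cdpf1 was lower in both edKO hearts before scaling, and Pkdrej overlapped.

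At Ppard the promoter and the neighbouring gene Fance, which takes part in Fanconi anaemia DNA repair, carried the strongest regions. The Ppard promoter (chromosome 17, 28232401 to 28232987, gene end) had a summit pileup of 95 and 76 in edKO hearts and 105 and 121 in WT hearts. The end of Fance (28313196 to 28313870, 11.7 kb past Ppard) had 109 and 95 in edKO hearts and 124 and 148 in WT hearts. Both were lower in both edKO hearts before scaling. A region 47.6 kb inside Ppard (28279970 to 28280701) had 17 and 33 in edKO hearts and 20 and 34 in WT hearts, an overlap. A region called in edKO 2 alone (28286683 to 28286914) had a pileup of 15. Upstream, 2 regions lay in Def6, a guanine nucleotide exchange factor of immune cells. The first (28224025 to 28224491) had 43 and 48 in edKO hearts and 38 and 71 in WT hearts. The second (28226080 to 28226420) was called in 3 hearts, at 21 in edKO 1 and at 32 and 38 in WT hearts. Of the immune markers Ptprc, Csf1r, Spi1, C1qa and Cd68, Spi1 alone had a peak at a gene end, in no edKO heart and in each WT heart.

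At Pparg no region reached a pileup above 31, and the pileup over the first start was larger in both edKO hearts than in either WT heart. The region over the first start (chromosome 6, 115360753 to 115361447, gene end) had a summit pileup of 22 and 20 in edKO hearts and 13 and 16 in WT hearts. Both edKO hearts were above both WT hearts, while the median pileup over a whole list was 19 and 18 in edKO hearts and 23 and 23 in WT hearts. The authors' fold enrichment was 9.15 and 6.86 in edKO hearts and 4.98 and 6.07 in WT hearts, and the −log10 p was 18.9 and 14.0 in edKO hearts and 8.06 and 10.9 in WT hearts. Ranked by −log10 p within its own list, the peak stood at the percentiles 68.0 and 69.3 in edKO hearts and 29.5 and 45.7 in WT hearts. The 95% Poisson intervals of the pileups, which cover counting error alone, ran from 13.8 to 33.3 and from 12.2 to 30.9 in edKO hearts and from 6.92 to 22.2 and from 9.15 to 26.0 in WT hearts. These intervals overlap between the genotypes.

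The other Pparg regions did not show the same order. The region just before the second start (115361567 to 115362341) had a pileup of 13 in edKO 2, no call in edKO 1, and 12 and 11 in WT hearts. A region 10.6 kb past the gene (115501039 to 115501554) had 11 and 15 in edKO hearts and 31 and 22 in WT hearts, with the authors' fold at 3.92 and 4.62 in edKO hearts and 8.70 and 6.02 in WT hearts. This one was lower in both edKO hearts before scaling, as were 84.3% of all regions called in all 4 hearts. Inside the gene, 115411465 to 115411682 was called in edKO 1 alone at a pileup of 11, and 115480333 to 115480532 in WT 1 alone at 9.

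Fat cell markers were checked because PPAR gamma is a fat cell regulator and whole hearts can carry adipose tissue. Plin1, the lipid droplet coat protein of fat cells, had a gene-end peak with −log10 p of 5.08 in edKO 1 and none in edKO 2, against 21.5 and 20.7 in WT hearts. Adipoq had one at 9.94 in WT 1 alone, and Cidec, Lep, Retn and Ucp1 were at 0 in all 4 hearts. Of the 5 adipocyte markers, 1 and 0 had a peak in edKO hearts and 2 and 1 in WT hearts. Of the other brown fat markers, Cidea had a gene-end peak in WT 2 alone and Prdm16 in every heart, with −log10 p of 11.4 and 8.74 in edKO hearts and 9.76 and 12.8 in WT hearts. The summed −log10 p of the adipocyte list was 5.08 and 0 in edKO hearts and 31.5 and 20.7 in WT hearts. Plin1 made up all of it except for Adipoq in WT 1. The sums for cardiomyocyte and fibroblast markers were lower in both edKO hearts too, and the endothelial sums overlapped. What part fat cells had in the Pparg values was not tested.

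**Figure D2:**
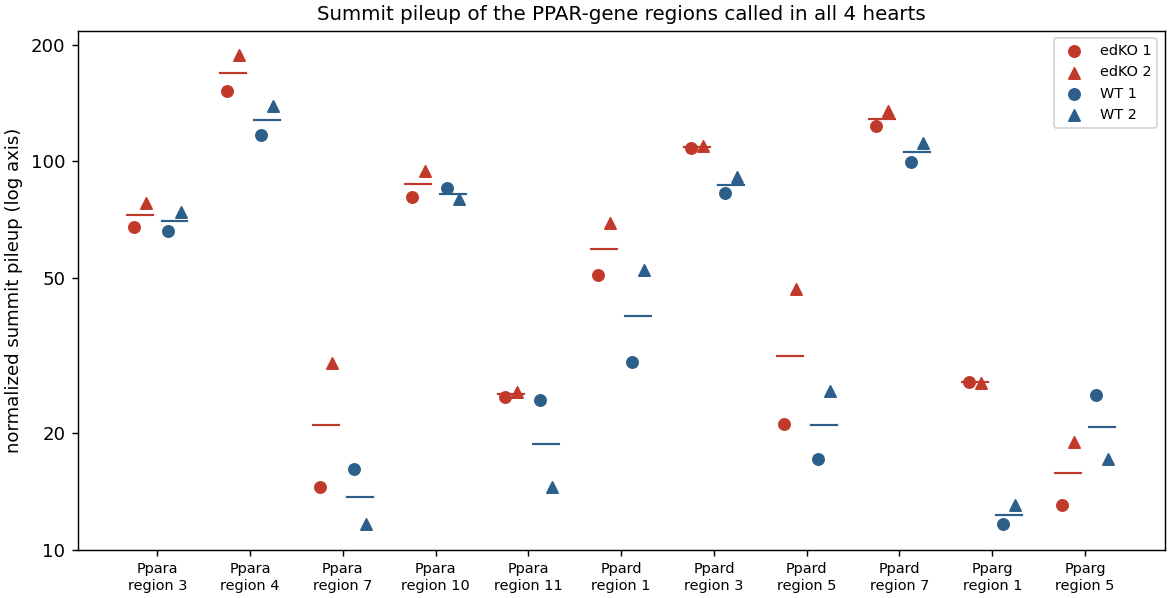
Normalized summit pileup, on a log axis, of the 11 PPAR-gene regions called in all 4 hearts, with edKO hearts left of WT hearts and 1 point per heart. The Pparg promoter region stands at 27.1 and 26.9 in edKO hearts and at 11.6 and 13.1 in WT hearts, and 5 of the 11 regions have both edKO points above both WT points.

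To compare heights, the pileup was put on 1 scale by quantile normalization over 16562 regions called in all 4 hearts, and tested with limma on log2 values. This scaling takes any overall difference between the libraries to be technical, so values are relative to the other shared regions. Before it, both edKO hearts were below both WT hearts at 6 of the 11 shared PPAR regions, against 84.3% of all shared regions. They were above at 1, the first Pparg promoter, against 0.242% of all.

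After normalization the first Pparg promoter had a pileup of 27.1 and 26.9 in edKO hearts and 11.6 and 13.1 in WT hearts. The log2 difference was 1.13 ± 0.28 (SE), a ratio of 2.19 of edKO over WT hearts. By limma the unadjusted p was 0.00107 and the Benjamini-Hochberg adjusted p over all shared regions was 0.200, which misses the threshold of 0.05. A larger log2 difference was found in 0.0725% of shared regions of any pileup. Low pileups carry more counting error, and regions of like pileup were not compared. With the pileups centred on their medians in place of quantile normalization, the log2 difference was 1.31 and limma's adjusted p 0.0176. Over 9 alternatives it ran from 0.85 to 1.31, with limma's adjusted p from 0.0176 to 0.821. Both edKO hearts were above both WT hearts before scaling, so most alternatives could hardly reverse the direction. It was the same in all 9. In the 4 of them that leave out a heart, 1 genotype has a single heart, assumed to vary like the other genotype, and no region of the whole table passed, so their adjusted p, 0.375 to 0.821, says little about stability.

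None of the 11 shared PPAR regions passed the adjusted threshold in limma, against 0.00604% of shared regions that passed with edKO higher and 0.0664% with edKO lower. There were 5 with an unadjusted p under 0.05, all higher in edKO hearts, against 4.83% of shared regions higher and 5.63% lower. With median centring 2 passed, both higher in edKO hearts, the promoters of Pparg and Ppara, against 0.580% of shared regions higher and 0.411% lower. The median log2 difference of the 11 was 0.41, against 0.00318 over all shared regions. The difference was above 0 at 10 of 11, against 50.5% of all shared regions and 52.8% of those at gene ends. Without edKO 2 it was above 0 at 8 of 11 with a median of 0.22, and without WT 1 at 9 of 11 with a median of 0.26. Both edKO hearts were above both WT hearts at 5, against 19.9% in general, and below at 0, against 19.7%. The 11 regions include neighbours' gene ends and share libraries, so they are not independent.

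The Ppara promoter had a normalized pileup of 152 and 188 in edKO hearts and 117 and 139 in WT hearts, above WT in both edKO hearts. Its log2 difference was 0.41 ± 0.13 (SE), with an unadjusted p of 0.00777 and an adjusted p of 0.327 by limma. Median centring gave 0.52 and an adjusted p of 0.0454 by limma, and over the same 9 alternatives the adjusted p ran from 0.0454 to 0.821. The Ppard promoter had 108 and 109 in edKO hearts and 83.2 and 91.0 in WT hearts, with a log2 difference of 0.32 ± 0.15 and an adjusted p of 0.467 by limma. Without edKO 2 the difference at the Ppara promoter was 0.25. With the authors' fold in place of the pileup, that at the Ppard promoter was 0.089 (limma's adjusted p 0.839), and the fold itself overlapped, at 15.1 and 10.5 in edKO hearts and 13.9 and 14.5 in WT hearts. All 3 receptor promoters had a positive value under each of the 9 alternatives, which reuse the same hearts and are not separate support. None of the 3 passed the threshold as first scaled.

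Away from the receptor promoters no region passed the threshold. The region before Ppara, over Gm46529, had 68.0 and 78.1 in edKO hearts and 66.2 and 74.1 in WT hearts, and its log2 difference of 0.06 ± 0.18 was near 0. The region inside Ppara had 14.5 and 30.2 in edKO hearts and 16.1 and 11.6 in WT hearts (0.61 ± 0.35). The region inside Ppard had 21.1 and 47.0 in edKO hearts and 17.1 and 25.7 in WT hearts (0.59 ± 0.36). In both, edKO 2 was the highest heart and the genotypes overlapped. Without edKO 2 the log2 difference was 0.086 inside Ppara and 0.020 inside Ppard. The region past Pparg was the 1 with a value below 0, at 13.1 and 19.0 in edKO hearts and 25.0 and 17.1 in WT hearts (log2 difference −0.39 ± 0.31), and the genotypes overlapped there too. Among the neighbours, the log2 difference was 0.29 ± 0.13 at Fance and 0.42 ± 0.31 at Pkdrej, with both edKO hearts above both WT hearts at each. It was 0.57 ± 0.27 at the first Def6 region and 0.08 ± 0.16 at Cdpf1, where the genotypes overlapped. Limma's adjusted p for the regions of this paragraph ran from 0.473 to 0.942.

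**Figure D3:**
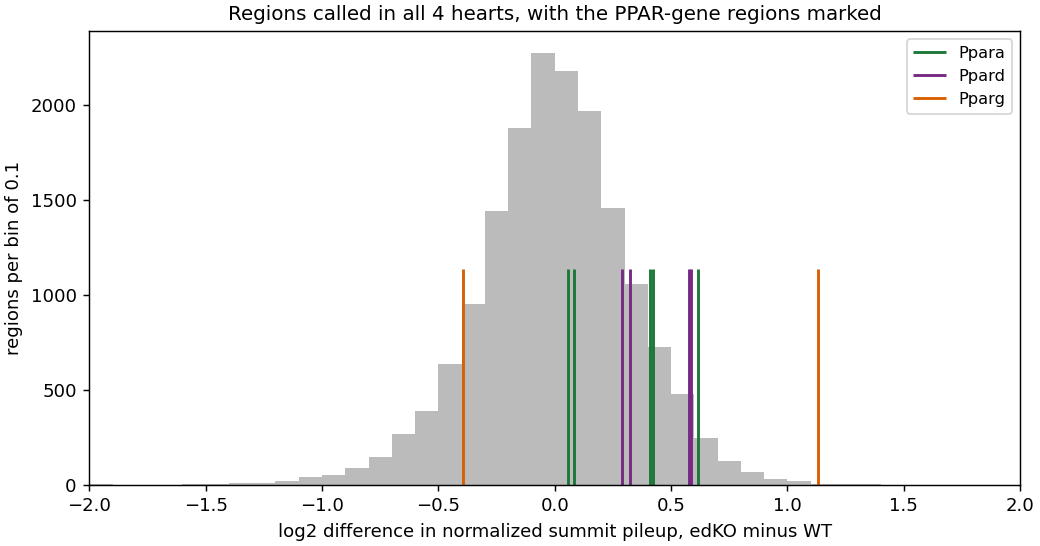
Log2 difference in normalized summit pileup, edKO minus WT, for 16562 regions called in all 4 hearts (histogram, number of regions per bin of 0.1) with the 11 PPAR-gene regions marked. The first Pparg promoter at 1.13 lies at the right edge, the region past Pparg at −0.39 lies left of 0, and the other 9 lie between 0.06 and 0.61.

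Averaged over the shared PPAR regions, within-list ranks did not separate the genotypes. The 11 shared PPAR regions had a mean percentile by −log10 p of 74.3 ± 8.14 in edKO hearts and 71.1 ± 1.22 in WT hearts (SD, n = 2 each), a difference of 3.17 (exact permutation p = 1). Over all regions called in all 4 hearts the mean percentile was 65.5 in edKO hearts and 73.1 in WT hearts. These regions fill a larger part of the shorter edKO lists, which by itself lowers their mean percentile there. The 2 values are therefore no baseline for the PPAR difference. Without edKO 2 the PPAR difference was −3.71, so its direction rested on that heart.

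Genes that work with the PPARs were described in the same way, over the body and 20 kb on each side. At 35 nuclear receptor genes, 30 of 143 regions with a call in both WT hearts were WT-only (21.0%), beside 19.4% of all regions. The deleted receptors are on that list, with 1 WT-only region of 8 at Rxra and 1 of 4 at Rxrb. Calls at Rxra were 9 and 6 in edKO hearts and 9 and 11 in WT hearts, and at Rxrb 3 and 3 in edKO hearts and 4 and 4 in WT hearts. Peaks at these genes do not check the deletion, since the exons removed are not located here. The list's highest counts were at the retinoic acid receptor gene Rarb, 4 of 6, at Esrrg, an orphan receptor of oxidative metabolism, 4 of 13, and at the vitamin D receptor gene Vdr, 3 of 7. Rora, a receptor of the circadian clock, had 3 of 10. Over the list 18 of 35 genes had a WT-only region, against 22.3% of 21631 protein-coding genes, and 0 had an edKO-only region. Among its 23 genes with at least 4 regions it was 14, against 44.0% of all genes with that many.

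At 19 genes of PPAR coactivators and corepressors, 17 of 100 such regions were WT-only (17.0%). These included 3 of 10 at Ppargc1b, a coactivator of mitochondrial genes, and 3 of 10 at Prdm16, a regulator of brown fat identity. There were 2 of 8 at Lpin1, a phosphatidate phosphatase and coactivator, and 2 of 3 at Nrip1, a corepressor. Ep300, a histone acetyltransferase, had the list's 1 edKO-only region, of 68 called in both edKO hearts. Over all regions the edKO-only share was 1.35%, so this count is near the general rate. At 15 genes that supply fatty acids to the receptors, 7 of 55 were WT-only (12.7%), with 2 of 7 at the fatty acid transporter gene Cd36. There was 1 each at Acsl1 (of 4), which activates fatty acids to acyl-CoA, the hormone-sensitive lipase gene Lipe (of 4) and the elongase gene Elovl5 (of 6).

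At 30 PPAR target genes, 28 of 98 such regions were WT-only (28.6%), and 21 of 30 genes had at least 1, against 22.3% of all protein-coding genes. Among the 21 of them with at least 4 regions it was 16, against 44.0% of all genes with that many. Acot1 and Acot2, acyl-CoA thioesterases whose windows overlap, had 4 of 4 and 3 of 4. Txnip, a regulator of glucose uptake, had 4 of 8 and Mlycd, the malonyl-CoA decarboxylase, 2 of 5. Set beside these, the receptor genes had 2 of 15. Of those 15 regions, 7 lay at gene ends, where the WT-only share was 5.92% in general. The positions of the regions in the other lists are not given here, so the shares may compare unlike sets. The difference between the lists was not tested, and the regions of each list come from the same 4 hearts.

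**Figure D4:**
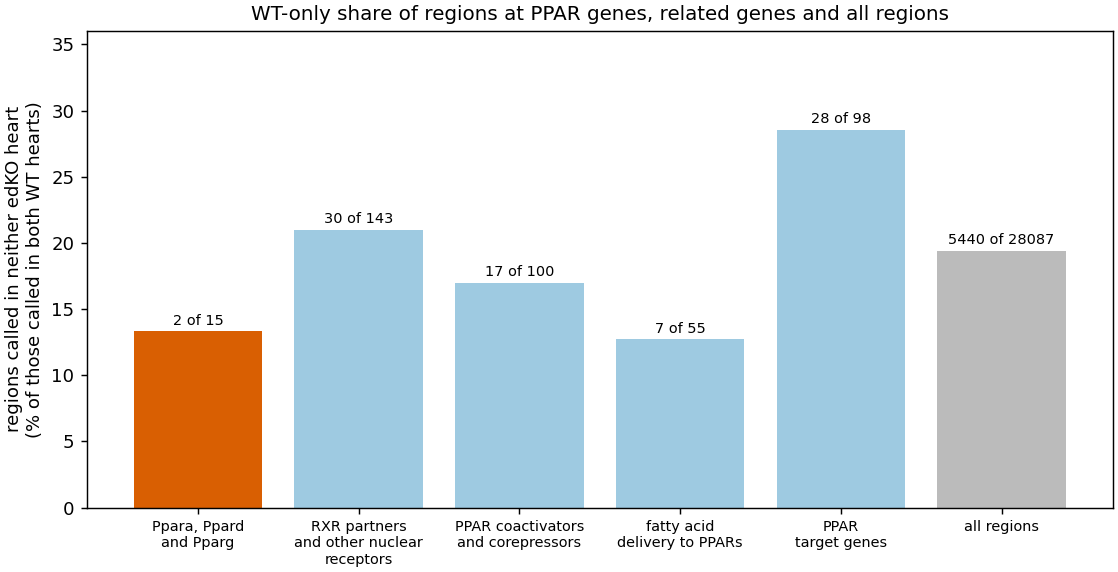
Share of WT-only regions among those called in both WT hearts, in percent, for the PPAR genes, 4 lists of related genes and all regions, with the counts above the bars. The PPAR genes stand at 13.3% (2 of 15), PPAR target genes at 28.6% and all regions at 19.4%. The lists were not matched for the position of their regions.

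Nuclear receptor genes were also ranked by how near their pattern of calls came to that of each PPAR gene. The measure was the Euclidean distance between the shares of a gene's regions called in each of the 4 hearts, over 23 receptor genes with at least 4 regions. Nearest to Ppara were Rxrb (0.122), the retinoic acid receptor gene Rara (0.174) and the mineralocorticoid receptor gene Nr3c2 (0.240). For Ppard they were the thyroid hormone receptor gene Thra (0.179), Rxrb (0.181) and Nr1i3 (0.186), which encodes the xenobiotic receptor CAR. For Pparg they were Nr3c2 (0.183), Rxrb (0.2) and the orphan receptor gene Nr4a3 (0.212). Rxrb was thus among the nearest to all 3, on 5 regions.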

How the data were processed

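Open chromatin was measured by ATAC-seq in 2 edKO and 2 WT hearts, 1 library each. Groups and replicate numbers came from the sample titles. The submitters' processing notes name MACS2, Bowtie2, SAMtools, cutadapt, bcl2fastq and CASAVA and the builds GRCm38 and mm10. Versions, the Tn5 shift and duplicate handling were not given in the sources used here. The authors deposited a peak list per library, not pooled. For each peak the deposited values are a fold (pileup over local background in the same library, a ratio), a −log10 p, a −log10 q-value, the summit position and a score. The lowest −log10 p was 3.00 to 3.04. The q-value and score entered no test.

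Peaks overlapping by at least 1 bp were merged. The authors' fold and −log10 p were solved together for a pileup, which came out whole (tolerance 0.001 in −log10 p) in 99.9858% to 100% of peaks per list. This is the depth information in the lists. Log2 pileups of the regions called in all 4 hearts were quantile-normalized and tested with limma 3.58.1 (R 4.3.3) with Benjamini-Hochberg adjustment. The fit was also run on simulated pileups of equal depth, which lack the overall difference between these libraries. Counts per heart were compared by a two-sided exact permutation test (Python 3.11.15, numpy 2.4.6). Gene positions and promoters were RefSeq's (GRCm38.p6). The gene table holds no exons, so exons, introns and UTRs were not told apart. A missing call means a site below the authors' threshold, not a closed site.

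The genes named were the PPAR genes with all their regions, the protein-coding genes over their windows, Rxra and Rxrb, and of each list the 4 genes with most WT-only regions and any with an edKO-only one. The 3 receptor genes nearest each PPAR gene in calls were added. Members and lists were chosen with earlier results of these data known. Alternatives were another threshold, equal list lengths, summit windows, other overlaps, other windows, median centring, the authors' fold, a replicate block and leaving out each heart.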

Additional observations from a re-analysis of the deposited data

How the results depend on the processing

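The limits are 2 hearts per genotype, lists of unequal length and low pileups at most PPAR regions. With lists of equal length there was 1 WT-only region, against 2 as reported. The regions called at Pparg then differed by 1.5 (edKO minus WT), a reversal. The difference in regions over the 3 genes was 0, against −3 as reported. In bases covered it was −484.5, against −1432 as reported. At a −log10 p of at least 10 there were again 2 WT-only regions but not the same ones, with 0 at Ppara, 1 at Ppard and 1 at Pparg. The difference in strength percentile, 3.17 as reported, was −0.14 with 50 kb on each side and 11.7 over the gene bodies alone. Median centring called 2 of the 11 shared regions and the replicate block 1, against 0 as reported, and the other alternatives 0. Over all shared regions, 12 were called as reported, 1 higher and 11 lower, 164 with median centring (96 higher and 68 lower) and 145 with the replicate block (53 higher and 92 lower). With the authors' fold there were 5, all lower, and with a −log10 p of at least 5 there were 4, 1 higher and 3 lower. Leaving out a heart, which leaves 1 genotype with a single heart assumed to vary like the other, called 0 regions in all, with 622 to 2340 at an unadjusted p under 0.05.

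With 1 heart left out at a time, WT-only regions ranged from 3 to 4, edKO-only regions from 0 to 2 and the difference in strength percentile from −3.71 to 10.1. The difference in Pparg calls ranged from −1 to 0.5. The log2 difference at the region over Gm46529 ranged from −0.040 to 0.16 and at Cdpf1 from −0.028 to 0.18. At the first Pparg promoter it ranged from 1.01 to 1.21, at the Ppara promoter from 0.25 to 0.54 and at the Ppard promoter from 0.26 to 0.39. Inside Ppara it ranged from 0.086 to 1.09, inside Ppard from 0.020 to 1.15, past Pparg from −0.70 to −0.13, at Pkdrej from 0.034 to 0.76, in Def6 from 0.18 to 0.97 and at Fance from 0.21 to 0.37. Except where the construction shows it (fewer peaks, fewer hearts), the cause was not tested.

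Replicate numbers are shared by the genotypes but nothing in the labels pairs the hearts. The correlation of same-numbered deviations was 0.00348. This value pools regions, since 2 pairs alone cannot give an intermediate correlation. With the replicate block the difference in regions called was −3 and the exact p 0.5, the smallest it can give. The block left the log2 difference at the first Pparg promoter at 1.13 and gave a limma adjusted p of 0.0497, within the range of 0.0176 to 0.821 over its 9 alternatives. A larger overlap between a peak and its region changes nothing by construction. The overlap with the strongest peak of a region was chosen after seeing the data and gave a difference of −2.5 regions, 2 WT-only and 0 edKO-only.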
